A study of Mus musculus with 2 samples.

Results

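The TGF-beta ligand genes Tgfb1, Tgfb2 and Tgfb3, the receptor genes Tgfbr1 and Tgfbr2, the signal transducers Smad3 and Smad4 and the inhibitors of differentiation Id1, Id2 and Id3 were read in 3T3 cells, a mouse fibroblast line derived from embryos that divides without limit and normally grows attached. They are 10 of the 8251 genes that at least 1 probe set of the Affymetrix MG_U74Av2 array names by a single symbol. All probe sets annotated to exactly 1 of these genes were taken, which gave 11. The genes were selected on the ratio of these arrays, fibronectin over suspension, so the ratios below are a description. In the fibronectin group the cells were left for 30 min on fibronectin (10 µg/ml), a matrix glycoprotein to which cells attach through integrins, in serum-free DMEM. In the suspension group they were held unattached in serum-free DMEM. Neither group is labelled with an added TGF-beta or BMP ligand or with a genetic change. The series text speaks of 2 replicates as well as 2 samples, but only 1 sample of each group is labelled, and what the replicates were is not stated. Each group had 1 array of total RNA, so the differences could not be tested and carry no p-value, and "higher" and "lower" refer to these 2 arrays alone. How long the cells stayed unattached was not stated in the labels used here.

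TGF-beta is secreted in a latent form that is stored in the matrix and has to be released before it can bind its receptors. The type II receptor (Tgfbr2) then activates the type I receptor (Tgfbr1), which phosphorylates Smad2 and Smad3, and these enter the nucleus with the common partner Smad4. The related BMP ligands act through Smad1, Smad5 and Smad9 and are classical inducers of the Id genes. Id proteins are helix-loop-helix proteins without a DNA-binding region that hold E proteins away from DNA, and TGF-beta can raise or repress Id1 depending on the cell type.

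The values are MAS5 signals on a linear scale, scaled so that both arrays had the same 2% trimmed mean. Genes were called measured where 1 or both arrays reached a common floor, a signal of 490, and signals below the floor were set to it before the log2 ratio, fibronectin minus suspension, was taken. Of the 8251 genes, 6385 were measured, and their median log2 ratio was -0.09. The 34 negative controls, antisense and bacterial or yeast probe sets, had a 95th percentile of 1873 on fibronectin and 1403 in suspension, so the floor lies within their range. Of 12 fibroblast markers, 9 exceeded that percentile on fibronectin and 10 in suspension. Col1a1, the type I collagen gene, had 68592 on fibronectin and 45605 in suspension, and Vim, the gene of the fibroblast filament protein vimentin, had only 686 on fibronectin and 1421 in suspension. On fibronectin 0 of 8 epithelial, 0 of 7 leukocyte, 0 of 6 endothelial and 0 of 6 muscle markers read from the array exceeded it. In suspension 2 epithelial markers (Cdh1 and Cldn4) and 2 muscle markers (Myod1 and Ckm) did, and their part in the results was not tested. Of 33 instrument settings compared, 4 differed between the arrays (scan day, operator, fluidics module and chip lot), and cannot be told apart from the groups.

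Promoter sequences are shown for the ligand genes with opposite ratios, Tgfb1 and Tgfb2, and for the Id genes that the promoter table holds, Id2 and Id3. They come from RefSeq, build GRCm38.p6, and run from 250 bases before to 50 bases after a listed transcription start, on the strand of the gene. Of the 10 genes, 7 were matched in that table by symbol. Tgfb1 lies at chr7:25686752-25687051 on the plus strand, Tgfb2 at chr1:186705940-186706239 on the minus strand, Id2 at chr12:25096043-25096342 on the minus strand and Id3 at chr4:136143572-136143871 on the plus strand. Capitals mark CAGAC or its complement GTCTG, the letters of the Smad3 and Smad4 binding element, and GGCGCC, letters found in GC-rich Smad1 and Smad5 elements.
Tgfb1: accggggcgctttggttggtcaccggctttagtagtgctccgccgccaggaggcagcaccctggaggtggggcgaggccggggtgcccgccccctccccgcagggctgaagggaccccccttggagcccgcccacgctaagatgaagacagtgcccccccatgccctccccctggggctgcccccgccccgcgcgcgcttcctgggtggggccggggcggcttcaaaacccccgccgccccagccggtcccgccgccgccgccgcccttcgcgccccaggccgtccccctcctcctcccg
Tgfb2: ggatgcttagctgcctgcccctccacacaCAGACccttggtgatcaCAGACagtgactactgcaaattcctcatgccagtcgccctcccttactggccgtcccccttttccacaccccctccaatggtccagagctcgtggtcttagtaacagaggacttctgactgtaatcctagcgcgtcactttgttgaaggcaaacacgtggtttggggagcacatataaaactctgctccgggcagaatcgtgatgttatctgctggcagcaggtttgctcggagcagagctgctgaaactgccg
Id2: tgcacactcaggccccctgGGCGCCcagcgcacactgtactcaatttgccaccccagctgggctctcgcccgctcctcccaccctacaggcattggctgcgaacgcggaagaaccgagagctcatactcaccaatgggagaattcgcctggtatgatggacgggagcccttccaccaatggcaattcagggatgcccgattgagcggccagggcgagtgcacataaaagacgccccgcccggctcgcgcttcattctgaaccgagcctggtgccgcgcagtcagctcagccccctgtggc
Id3: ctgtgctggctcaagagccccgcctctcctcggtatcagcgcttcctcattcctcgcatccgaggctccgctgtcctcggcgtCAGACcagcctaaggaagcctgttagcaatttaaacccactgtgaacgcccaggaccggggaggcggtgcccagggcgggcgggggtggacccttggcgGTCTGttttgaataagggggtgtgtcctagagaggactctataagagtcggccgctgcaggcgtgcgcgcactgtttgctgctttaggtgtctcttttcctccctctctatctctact
Counted from the listed start, CAGAC or GTCTG began at -221 and -204 in Tgfb2 and at -167 and -68 in Id3, and was in neither the Tgfb1 nor the Id2 window. GGCGCC occurred at -231 in Id2 and in none of the other 3 windows. On both strands, 49.6% of 32851 promoters of the same length hold CAGAC and 11.9% hold GGCGCC, and 0 matches to these motifs overlapped in the windows shown. The TATA letters TATAAA, held by 13.6% of promoters, were in Tgfb2 at -31 and in none of the other 3. The Sp1-type letters GGGCGG or their complement, held by 35.7%, occurred 6 times in Tgfb1, 2 times in Id3 and 1 time in Id2. The Tgfb1 window had 77.0% G and C, that of Id2 63.3% and that of Tgfb2 54.3%, against a median of 52.7% over all promoters. Letters alone do not show a bound site.

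Among the ligands, Tgfb1 was higher on fibronectin, Tgfb2 lower, and Tgfb3 close to equal. Tgfb1 (probe set 101918_at), which encodes the most widely expressed ligand, had a signal of 2573 on fibronectin and 1113 in suspension. It was thus 2.31-fold higher on fibronectin, a log2 ratio of 1.21. On fibronectin 0 of the 34 negative controls reached its signal, while in suspension 5 did, so the lower of its signals lies within their range. When the floor was raised to the 95th percentile of negative controls, its log2 ratio was 0.65. Of all measured genes, 8.91% had a larger absolute ratio than Tgfb1.

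Tgfb2 (93300_at), a ligand known for roles in heart and eye development, had a signal of 468 on fibronectin and 1034 in suspension. As the signal on fibronectin was below the floor, the gene was at least 2.11-fold lower there, a log2 ratio of -1.08. Negative controls reached as high, with 12 at or above its signal on fibronectin and 8 in suspension. Tgfb2 counts as measured through its suspension signal alone, so it could come out only as lower.

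Tgfb3 (102751_at), a ligand needed for closure of the palate, had 4580 on fibronectin and 3763 in suspension, above all negative controls in both arrays. Its log2 ratio was 0.28, or -0.19 with the arrays scaled to the hybridisation spikes. The other Tgfb3 probe set (161382_at) read 179 on fibronectin and 97.6 in suspension, below the floor, and gave no ratio.

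The receptors were not measured at the floor. Tgfbr1 (92427_at), the type I receptor kinase, had signals of 54.9 on fibronectin and 116 in suspension, and 29 and 28 of the 34 negative controls were at or above them. Tgfbr2 (94702_at), the type II receptor that binds the ligand, had 320 on fibronectin and 294 in suspension, with 16 and 22 negative controls at or above. No fold is given for either gene, and these signals do not show that the receptors are absent, since a probe set can respond weakly to an RNA that is present.

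Smad3 (93613_at), the receptor-activated Smad of the TGF-beta branch, was likewise below the floor, with 408 on fibronectin and 289 in suspension. Smad4 (160440_at), the partner shared by the TGF-beta and BMP branches, was bright and nearly equal, with 2610 on fibronectin and 2488 in suspension. Its log2 ratio was 0.07, and -0.40 with the arrays scaled to the hybridisation spikes, and 91.4% of measured genes had a larger absolute ratio. Signals of different probe sets are not set against each other, as probes differ in their response.

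**Figure D1:**
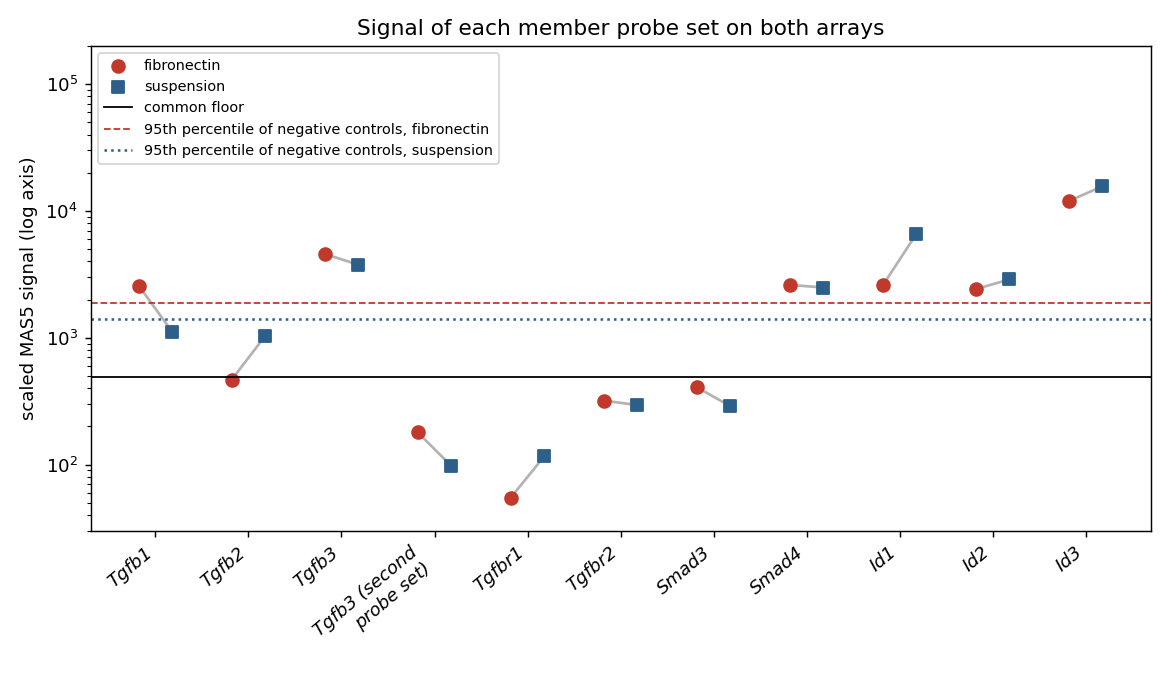
Scaled MAS5 signal (log axis) of the 11 probe sets on the fibronectin array (circles) and the suspension array (squares), with the floor of 490 (black line) and the 95th percentiles of negative controls, 1873 on fibronectin (dashed) and 1403 in suspension (dotted). Tgfb3, Smad4 and all 3 Id genes lie above these percentiles on both arrays, Tgfb1 only on fibronectin, and Tgfb2, both receptors, Smad3 and the dim Tgfb3 probe set on neither.

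All 3 Id genes among the members had lower signals on fibronectin, by unequal amounts. Id4, which is not a member, read 569 on fibronectin and 222 in suspension, at least 1.16-fold higher. Both Id4 signals lay below the 95th percentiles of negative controls, and it was measured through fibronectin alone, so it could come out only as higher. Id1 (100050_at), an inhibitor of E proteins that BMP signals and serum induce, had 2589 on fibronectin and 6575 in suspension. It was 2.54-fold lower on fibronectin, a log2 ratio of -1.34, with 0 negative controls at or above either signal. Of all measured genes, 5.94% had a larger absolute ratio.

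Id3 (92614_at), a close relative of Id1 that is often expressed with it, had 11963 on fibronectin and 15628 in suspension, a log2 ratio of -0.39. Id2 (93013_at), which is also known for its part in lymphoid and neural development, had 2418 on fibronectin and 2881 in suspension, a log2 ratio of -0.25, with 1 negative control above it on fibronectin. Ratios of this size were common, since 56.6% of measured genes had a larger absolute ratio than Id3 and 70.3% a larger one than Id2. Of all measured genes, 55.1% had a ratio below 0.

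Where a gene had more than 1 measured probe set, their log2 ratios differed, and the SD of a single ratio estimated from 1146 such genes was 0.69. This measures the spread between probes and holds nothing of the spread between cultures. The ratios of Id3, Tgfb3, Id2 and Smad4 were smaller than this SD. Those of Id1 and Tgfb1 were larger, which is no test, as the genes were selected on them.

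**Figure D2:**
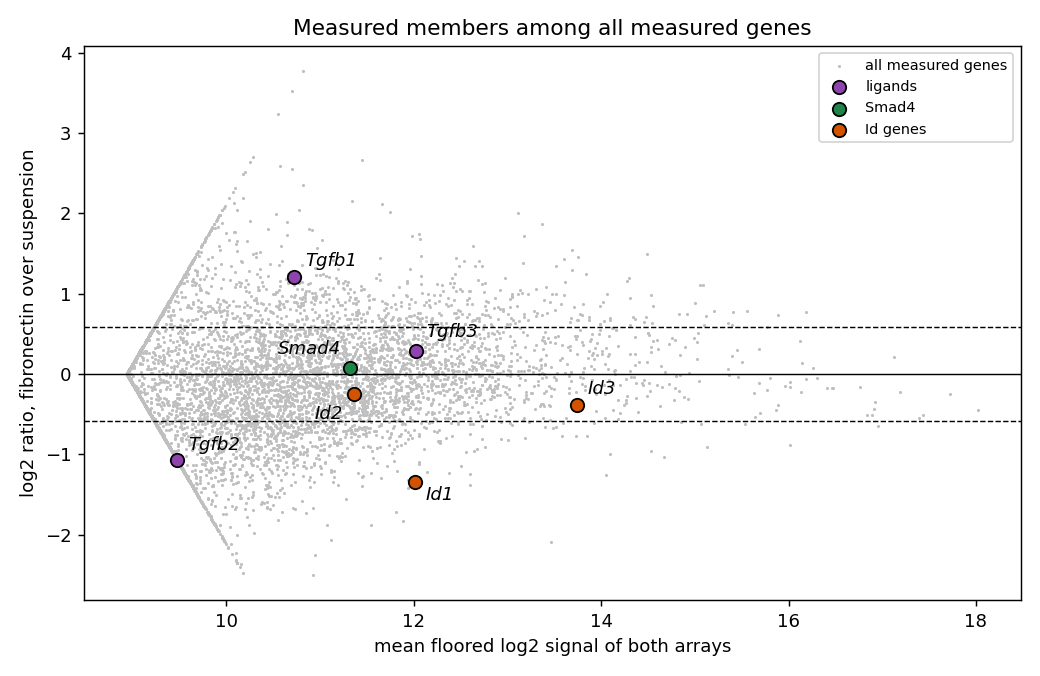
Log2 ratio of fibronectin over suspension against mean floored log2 signal for the 6385 measured genes (grey) and the 7 measured members (ligands purple, Smad4 green, Id genes orange), with dashed lines at 1.5-fold. Tgfb1 (1.21) and Id1 (-1.34), selected on these ratios, lie outside the 1.5-fold lines. Tgfb2 (-1.08) lies on the lower edge that the floor sets, and Tgfb3, Smad4, Id2 and Id3 lie inside the 1.5-fold lines.

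By count, 1 of the 7 measured members (Tgfb1) passed 1.5-fold upward, being higher on fibronectin, and 2 (Tgfb2 and Id1) were lower by at least that much. All 3 were also past 2-fold. Id3 passed 1.5-fold in 2 alternatives, with -0.60 after quantile normalization and -0.86 with spike scaling, and Id2 in 1, with -0.73 under spike scaling. Over all measured genes, 15.9% passed 1.5-fold upward and 22.6% downward, and nothing is read from the members' counts, as these ratios guided their choice. At 2-fold the shares were 5.79% and 9.27%. Set against each other, the Id genes had a median log2 ratio of -0.39 and the measured ligands and receptors, which are the 3 ligands, one of 0.28. The difference, Id genes minus ligands and receptors, was -0.67. Each median rests on 3 genes. The ligands ranged between -1.08 and 1.21 and the Id genes between -1.34 and -0.25, with Tgfb2 lower than both Id2 and Id3. The overlap of these ranges came from Tgfb2 alone, which was measured through suspension only and could come out only as lower. With a floor at the 60th percentile or at the negative controls Tgfb2 was not measured.

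The reading depends on what is taken as unchanged between the arrays. Median scaling moved the all-gene median log2 ratio by 0.19, and scaling to 9 hybridisation spikes, control transcripts added to the labelled target, moved it by -0.43. Id1 and Tgfb1 stayed past 1.5-fold in the same direction under all 10 alternatives of scaling, floor and probe set choice, with ranges of -1.82 to -1.14 and 0.65 to 1.42. Relative to the median of all measured genes under the same setting, Id1 lay between -1.39 and -1.19, Id3 between -0.57 and -0.24 and Id2 between -0.24 and -0.10. Tgfb1 lay between 0.67 and 1.36, Tgfb3 between 0.22 and 0.43 and Smad4 between 0.08 and 0.22 above that median. Tgfb2 was measured under 8 of the alternatives and lay between -1.04 and -0.77 relative to it.

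**Figure D3:**
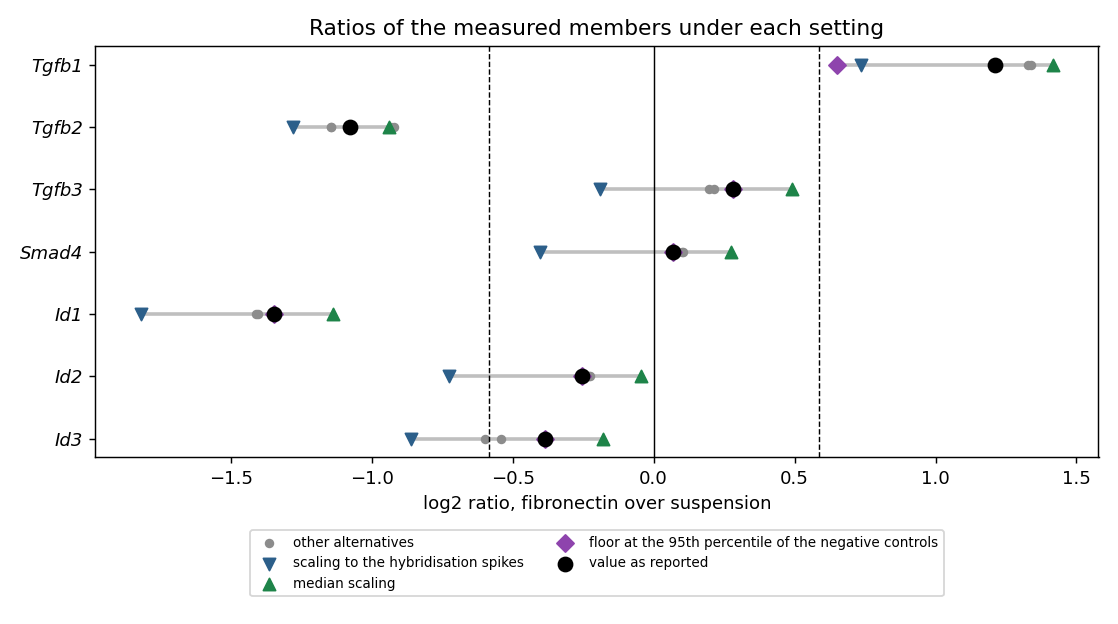
Log2 ratio of fibronectin over suspension of the 7 measured members as reported (black) and under the alternatives, with median scaling (up triangle), spike scaling (down triangle) and the floor at the 95th percentile of negative controls (diamond) marked and dashed lines at 1.5-fold. Tgfb1 stays right of the upper line and Id1 left of the lower one, while Tgfb3 (-0.19) and Smad4 (-0.40) cross 0 with spike scaling.

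The rest of the pathway was read from 8 lists of other genes, of which 82 of 127 different genes were measured. Of these, 20 (24.4%) were at least 1.5-fold higher on fibronectin, 23 (28.0%) at least 1.5-fold lower and 39 within 1.5-fold, with a median log2 ratio of 0.01, beside 15.9% and 22.6% and a median of -0.09 over all measured genes. Median scaling turned the balance, with 23 pathway genes higher and 14 lower by 1.5-fold, and 1490 and 983 of all measured genes, and quantile normalization gave 20 and 17 pathway genes. Of the 27 genes named from these lists for their ratios, Eng, Hey1, Smad7 and Snai2 were measured and past 1.5-fold in the same direction under all 11 settings. A gene or probe set given as at least N-fold counts as measured through 1 array alone, so it could come out only as higher on that array.

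Genes that store and activate TGF-beta in the matrix had signals above suspension in 9 of 10 measured cases, beside 44.9% of all measured genes. Of the 10, 4 were higher by at least 1.5-fold and 1 was lower by that much. Over all measured genes 15.9% were higher and 22.6% lower by 1.5-fold, shares that stand beside the lists below too. The median log2 ratio of these 10 genes was 0.49. With spike scaling that median was 0.02, beside a median of -0.51 for all measured genes. The spike-scaled medians of the lists below stand beside the same value. Plat, the tissue plasminogen activator, had 11814 on fibronectin and 6059 in suspension, 1.95-fold higher. Itgav, the alpha subunit of the integrins that release latent TGF-beta, had 12961 on fibronectin and 7885 in suspension, 1.64-fold higher. Another probe set of Itgav, at least 1.72-fold higher, had 843 on fibronectin and 115 in suspension, both below the 95th percentiles of negative controls. The remaining one read 144 on fibronectin and 400 in suspension, below the floor, and gave no ratio. The membrane protease gene Mmp14 had 16744 on fibronectin and 10300 in suspension, 1.63-fold higher. Plau, the urokinase gene, went the other way with 720 on fibronectin and 1277 in suspension, both below the 95th percentiles of negative controls.

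Of the other Smads, 3 of 5 measured were at least 1.5-fold lower on fibronectin and 0 higher, with a median log2 ratio of -0.78 (-0.32 with a floor at either the 60th percentile or the negative controls, -1.12 with spike scaling). Under these higher floors Smad5 drops out, so that median compares different genes. Smad7, an inhibitory Smad that TGF-beta and BMP signals induce, had 2017 on fibronectin and 3566 in suspension, 1.77-fold lower. Smad6, the inhibitory Smad of the BMP branch, had 1957 on fibronectin and 3368 in suspension, 1.72-fold lower. Smad5 was at least 1.88-fold lower, with 437 on fibronectin and 923 in suspension, both within the negative controls. Smad1 and Smad2, which carry BMP and TGF-beta signals, were within 1.5-fold, with log2 ratios of 0.14 each.

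The other receptors were split, with 4 of 10 measured at least 1.5-fold higher, 4 at least 1.5-fold lower and a median of -0.18 (-0.44 with a floor at the 20th percentile or with none, -0.62 with spike scaling). Of the 4 higher, all but Tgfbr3 counted as measured through their fibronectin signals alone, so they could come out only as higher. Among the 4 lower, Bmpr1b was measured through suspension alone and could come out only as lower. Tgfbr3, the co-receptor betaglycan, had 3151 on fibronectin and 1486 in suspension, 2.12-fold higher. Eng, the co-receptor endoglin, had 2428 on fibronectin and 5167 in suspension, 2.13-fold lower. The activin receptor gene Acvr1b had 867 on fibronectin and 2303 in suspension, 2.66-fold lower. Bmpr1a and Acvr1, type I receptors of the BMP branch, were higher by at least 2.60-fold and at least 2.32-fold. Their fibronectin signals were 1272 and 1137, which lay within the negative controls there. Of the other ligands of the superfamily 11 of 23 read were measured, 2 passing 1.5-fold upward and 4 downward, and the only one above the 95th percentile of negative controls on both arrays was Bmp4 (2368 on fibronectin, 2766 in suspension). The activin subunit gene Inhbb was at least 2.20-fold higher and Gdf5 at least 1.56-fold higher, Gdf9 was 2.20-fold lower and Lefty1 at least 1.63-fold lower.

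Inhibitors and co-regulators were mostly within 1.5-fold, in 12 of 18 measured genes, with 3 higher and 3 lower and a median of 0.05 (-0.35 with spike scaling). Ski, a repressor that binds Smads, had 7478 on fibronectin and 4299 in suspension, 1.74-fold higher. Nedd4l, a ubiquitin ligase that targets Smads, was 1.61-fold higher and 1.83-fold higher in its other probe set. Fst, the activin antagonist follistatin, was at least 1.63-fold higher, and the kinase gene Map3k7 (TAK1) at least 1.82-fold lower, with both arrays' signals within the negative controls.

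Genes known to respond to TGF-beta lay on both sides, with 5 of 22 measured at least 1.5-fold higher, 8 at least 1.5-fold lower and a median of -0.15 (0.06 with median scaling, -0.62 with spike scaling). The medians of all measured genes under those scalings were 0.11 and -0.51. Ccn2, a matricellular protein gene, had 561 on fibronectin and 1600 in suspension, 2.85-fold lower. Snai2, the transcription factor Slug, had 2406 on fibronectin and 6443 in suspension, 2.68-fold lower. Vim was 2.07-fold lower, but its fibronectin signal (686) also lay below that percentile. The log2 ratio of Vim ranged from -1.52 to -0.43 over the settings in which it was measured. Bhlhe40, a transcriptional repressor gene, had 2579 on fibronectin and 1241 in suspension, 2.08-fold higher, with the suspension signal below the percentile of that array. Of 8 measured BMP-responsive genes, 2 passed 1.5-fold upward and 3 downward, with a median of 0.11 (-0.46 with spike scaling). Beside Smad6 and Smad7, which are on that list too, Hey1, a repressor also known as a Notch target, had 9113 on fibronectin and 3598 in suspension, 2.53-fold higher, opposite to Id1. Msx2, a homeobox gene, was at least 1.89-fold higher, with 925 on fibronectin and 181 in suspension, both below the 95th percentiles of negative controls.

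The E protein genes, whose products the Id proteins bind, differed among themselves. Tcf4 (E2-2) had 5476 on fibronectin and 2788 in suspension, 1.96-fold higher. Tcf3 (E2A) had 1142 on fibronectin and 2225 in suspension, 1.95-fold lower, with the fibronectin signal below the 95th percentile of negative controls. Over the settings the log2 ratio of Tcf3 ranged from -1.44 to -0.44 and that of Tcf4 from 0.50 to 1.18. Tcf12 (HEB) had 4583 on fibronectin and 4028 in suspension, a log2 ratio of 0.19.

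**Figure D4:**
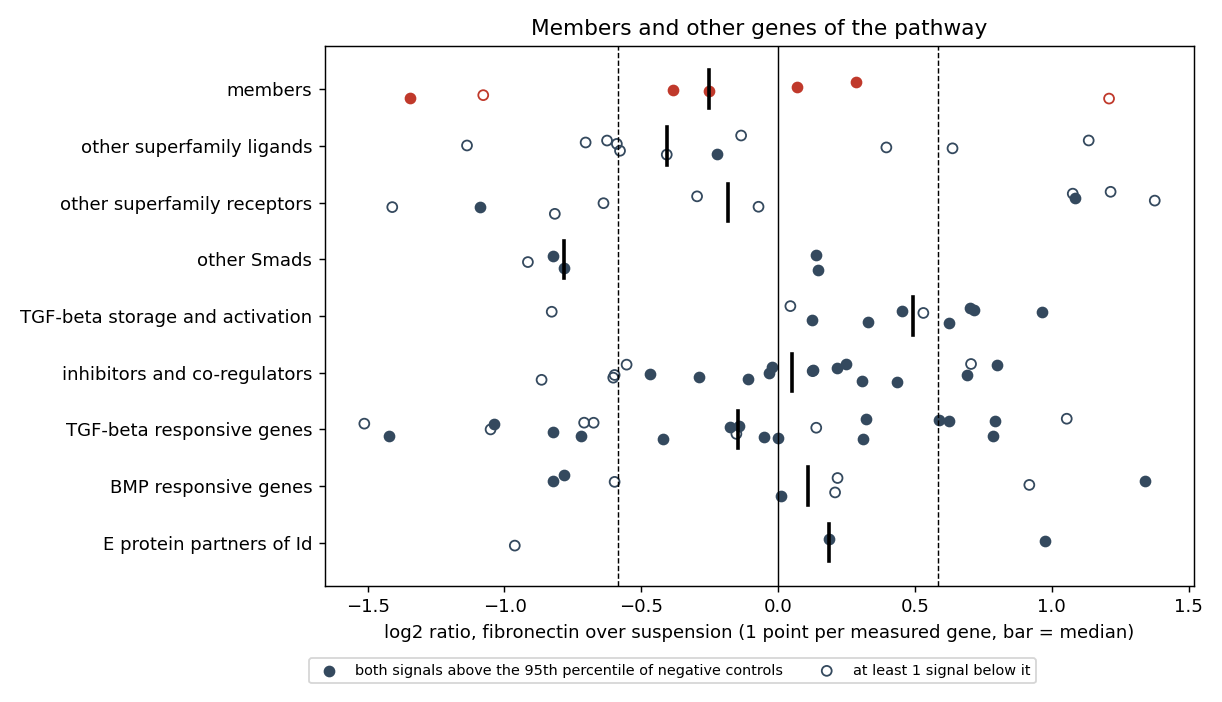
Log2 ratio of fibronectin over suspension of the 7 measured members (top, red) and of the measured genes of the 8 other lists, 1 point per gene, filled where both signals exceeded the 95th percentile of negative controls, with bars at the medians and dashed lines at 1.5-fold. The storage and activation genes lie mainly right of 0 (median 0.49), the other Smads have their median at -0.78 (-0.32 with either higher floor, where Smad5 drops out), and the other lists spread to both sides.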

How the data were processed

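Total RNA, prepared with RNeasy columns at 2.5 µg/µl per the labels' protocols, was hybridised as biotin-labelled target to 1 array per group. The deposited values are linear intensities, 1 signal per probe set, which the submitters' processing notes credit to MAS5 with no version. Detection calls were not analysed here. Trimmed means of these intensities, 1486 on fibronectin and 1489 in suspension, were nearly equal before any scaling here. For this report both arrays were brought to a common 2% trimmed mean, taken over the 12422 probe sets other than controls. The floor was set from the 40th percentiles of signal, averaged over the arrays. Where 1 signal fell below it, the fold is a bound, written as at least N-fold.

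Of 12488 probe sets, 10833 other than controls had 1 gene symbol and 396 had several and were left out. Several probe sets of 1 gene were represented by the brightest. All 10 member symbols matched RefSeq (GRCm38.p6) by gene ID. From each list the text names up to 4 genes with the largest absolute ratio among those past 1.5-fold. Col1a1, Bmp4, Tgfbr3, Bmpr1b, Smad1, Smad2, Id4, Tcf12 and the markers of other cell types were named outside that rule, after their values were seen. The members and lists were chosen with earlier results of these data known. With 1 array per group no test exists, and the number of arrays limits the precision. Python 3.11.15, numpy 2.4.6, pandas 2.3.3 and statsmodels 0.14.6 were used, and the calculation of ratios was checked on simulated arrays with known folds. The known folds were placed in bright probe sets only, so folds bounded by the floor were not checked. The 10 alternatives were other scalings, other floors and the mean over probe sets. Counts of members and of all measured genes were also taken at a fold limit of 2.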

Additional observations from a re-analysis of the deposited data

How the results depend on the processing

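No paired analysis was possible because each group had 1 array. A ratio counted as moved when it shifted by more than the SD between probe sets of 1 gene, and a list's median by more than that SD over the square root of its number of genes. For the medians of all measured and of pathway genes the limit was 0.1, and for counts it was 1.5 times. No single member's ratio moved under any of the 10 alternatives, though with spike scaling Tgfb3 and Smad4 were at -0.19 and -0.40. Receptor and Smad3 ratios appear with lower floors, where they rest on signals within the negative controls, and Tgfb2 was not measured under a floor at the negative controls or the 60th percentile. With spike scaling the median log2 ratio was -0.86 for the Id genes, -0.19 for ligands and receptors, -0.45 for pathway genes and -0.51 for all measured genes, and 4 members were at least 1.5-fold lower. There 7 pathway genes were higher and 35 lower by 1.5-fold, against 367 and 2919 of all measured genes. With median scaling the medians of pathway and of all measured genes were 0.21 and 0.11, 23 pathway genes were higher and 14 lower, and 1490 of all measured genes were higher and 983 lower. With the floor at the 60th percentile 1 member was lower, ligands and receptors had a median of 0.75, 13 pathway genes were higher and 13 lower, and 610 of all measured genes were higher and 683 lower. With the floor at the negative controls 1 member was lower, the pathway median was 0.12, 13 pathway genes were higher and 7 lower, and 433 and 311 of all measured genes were. The floor at the 20th percentile gave 1557 higher genes in all. With no floor 1690 were higher and 2535 lower, and 35 pathway genes were lower. At 2-fold 370 were higher and 592 lower. Fewer genes pass a higher floor or fold limit by construction, and the other causes were not tested. The difference of medians, Id genes minus ligands and receptors, cannot move when a scaling shifts all genes alike. A floor at the 60th percentile gave -1.13, where Tgfb2 drops out, and the absence of a floor gave -0.51, where both receptors enter, so these compare different genes.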
